A study of Mus with 2 samples.

Results

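The spots described here are the tumor spots with the highest summed level of 4 genes, Dynlt1a, Ankmy1, Leng9 and Pam, on 2 spatial transcriptome sections of CT26 tumors. A spot is a small disc on the array that captures the RNA of the tissue above it and can hold several cells of different types. Members were selected on measured values: in each section, spots with over 200 detected genes were ranked by the counts per 1000000 (CPM, the unique molecular identifiers or UMIs of a gene divided by all UMIs of the spot and multiplied by 1000000) of the 4 genes added together, and the top 10% were taken as high spots. The rule gave 222 high spots among 2219 in the control tumor and 195 among 1950 in the rIL7 tumor, 417 of 4169 in all. Both tumors grew from 200000 CT26 cells, a mouse colon carcinoma line, placed under the skin of female BALB/c mice aged 6 to 8 weeks, and both were taken on day 15. The control mouse had been given PBS, and the rIL7 mouse 10 µg of recombinant IL-7 into the peritoneum on days 11 and 13. A frozen section of 10 µm was profiled from each tumor. Each group therefore held 1 section, no test between groups or within them was possible, and the 95% intervals below cover counting error only.

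Dynlt1a encodes a light chain of cytoplasmic dynein, the motor that carries cargo along microtubules toward the cell center, and belongs to a family of near-identical gene copies. Pam encodes the enzyme that amidates the end of peptide hormones in the secretory pathway, while Ankmy1, an ankyrin repeat and MYND domain gene, and Leng9, a gene of the leukocyte receptor cluster region, are little characterized. In Visium arrays, every spot carries oligonucleotides that share a spatial barcode of 16 bases followed by a stretch of thymines, which primes on the poly(A) tail of the RNA. A barcode thus names the position of a spot, and a given barcode sits at the same position on every array of the same design.

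Barcodes are shown first because the composition of the barcode was the property that the high spots shared most widely. Of the 1701 barcodes with a kept spot in both sections, all of which lay at the same array row and column in both, 73 marked a high spot in both sections and 105 marked a spot with 0 UMIs of the 4 genes in both. From the former the 6 with the highest level in the section where they had less, and from the latter the 6 with the deepest spot in the section where they had fewer UMIs, are printed from 5′ to 3′ with A and T in capitals and G and C in lower case.
high in both, array row 46, column 68: TgAcTATAATccTTTc
high in both, array row 30, column 38: ATTTAcAgTTTAcTgg
high in both, array row 50, column 72: ATAAggTggAgAAcAT
high in both, array row 52, column 64: TTAgAAgAAcATgAcT
high in both, array row 51, column 83: TcTgATgTATTcTgTc
high in both, array row 46, column 66: gTATcTTTcATAAccA
0 UMIs in both, array row 18, column 26: gAggTcccAAAgATcT
0 UMIs in both, array row 31, column 101: cTgAcTgcgcAgcTcg
0 UMIs in both, array row 32, column 92: AATcTgcgTTgggAcg
0 UMIs in both, array row 13, column 55: ccgccggTcAAcAcAc
0 UMIs in both, array row 25, column 23: gATTccTATAcggcgc
0 UMIs in both, array row 17, column 49: AccAAgAAcgcgTgTc
The 6 barcodes high in both held 10 or 11 A+T bases, and the 6 with no UMI in either held 5 to 8. The barcode at row 46 and column 68 carried 9 UMIs of the 4 genes among 7540 in the control tumor, or 1194 CPM, and 10 among 6690 in the rIL7 tumor, or 1495 CPM. The barcode at row 18 and column 26 carried none among 16489 and 19365 UMIs.

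Depth limited what a single spot could show. The control section held 22951950 UMIs over 2221 spots and the rIL7 section 25729413 over 1951, with medians of 9623 and 12921.5 UMIs per kept spot. A high spot rested on few molecules, with a median of 8 UMIs of the 4 genes in the control and 7 in the rIL7 tumor against 1 in the other spots. The last spot inside the threshold had 669.5 CPM in the control tumor and the first outside it 665.0, and in the rIL7 tumor the corresponding values were 428.5 and 426.8. Spots with 0 UMIs of the 4 genes made up 26.1% of the control and 21.1% of the rIL7 section. High spots were somewhat shallower than the others, with a median of 8864 against 9744 UMIs in the control and 11882 against 12990 in the rIL7 tumor.

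The level of the 4 genes in high spots is a description, since those values chose the spots. Dynlt1a (chr17:6306344-6317520, GRCm38, RefSeq) had 83.2 CPM in high and 11.2 CPM in other spots of the control section, and 45.7 and 6.43 CPM in the rIL7 tumor. Ankmy1 (chr1:92859840-92902987) had 172 and 22.5 CPM in the control tumor and 84.7 and 11.6 CPM in the rIL7 tumor. The ratio of high to other spots was thus 7.43 and 7.64 for these genes in the control and 7.11 and 7.32 in the rIL7 tumor. Leng9 (chr7:4148183-4149872) had 146 and 29.0 CPM in the control tumor and 96.9 and 18.4 CPM in the rIL7 tumor. Pam (chr1:97821091-98095853) had 547 and 116 CPM in the control tumor and 366 and 101 CPM in the rIL7 tumor. Pam supplied 62.5% of the UMIs in the sum in the control and 69.9% in the rIL7 tumor, whereas Dynlt1a supplied 7.12% and 5.61%, so the ranking followed Pam more than the gene listed first.

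To read each gene without its own counts in the choice, the top 10% of spots was chosen again on the other 3 genes. Each left-out gene was still higher there in both sections. Dynlt1a was 4.44 times as high (95% interval 3.55 to 5.52) in the control and 3.77 times (2.83 to 4.98) in the rIL7 tumor, and Ankmy1 4.49 times (3.85 to 5.23) and 3.97 times (3.23 to 4.87). Leng9 reached 3.65 (3.13 to 4.25) and 3.19 (2.65 to 3.81), and Pam, the gene with the smallest ratio of the 4, 2.72 (2.50 to 2.96) and 2.19 (1.99 to 2.40). Averaged over the 4 choices by pooling UMIs, the ratio was 3.15 (2.96 to 3.36) in the control and 2.52 (2.34 to 2.71) in the rIL7 tumor. The 4 genes therefore rose and fell together from spot to spot.

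The high spots formed few contiguous groups on the array. On the hexagonal grid a spot has up to 6 neighbors, and a neighbor was counted once for each high spot that it touched. Of 1301 such pairings in the control tumor 178 were with a high spot, a share of 13.7% (11.9 to 15.7) against 10.0% of all spots. In the rIL7 section the share was 15.0% (13.0 to 17.2), from 172 of 1144 pairings. Adjacent high spots count from both sides, so the pairings are not independent and the intervals of neighbor shares are too narrow. Spots were lone, with no high neighbor, in 110 of 222 cases (49.5%) in the control and 89 of 195 (45.6%) in the rIL7 tumor. Connected groups of 5 or more spots numbered 4 in the control tumor, with 36 spots (16.2% of high spots), and 6 in the rIL7 tumor, with 40 spots (20.5%).

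**Figure D1:**
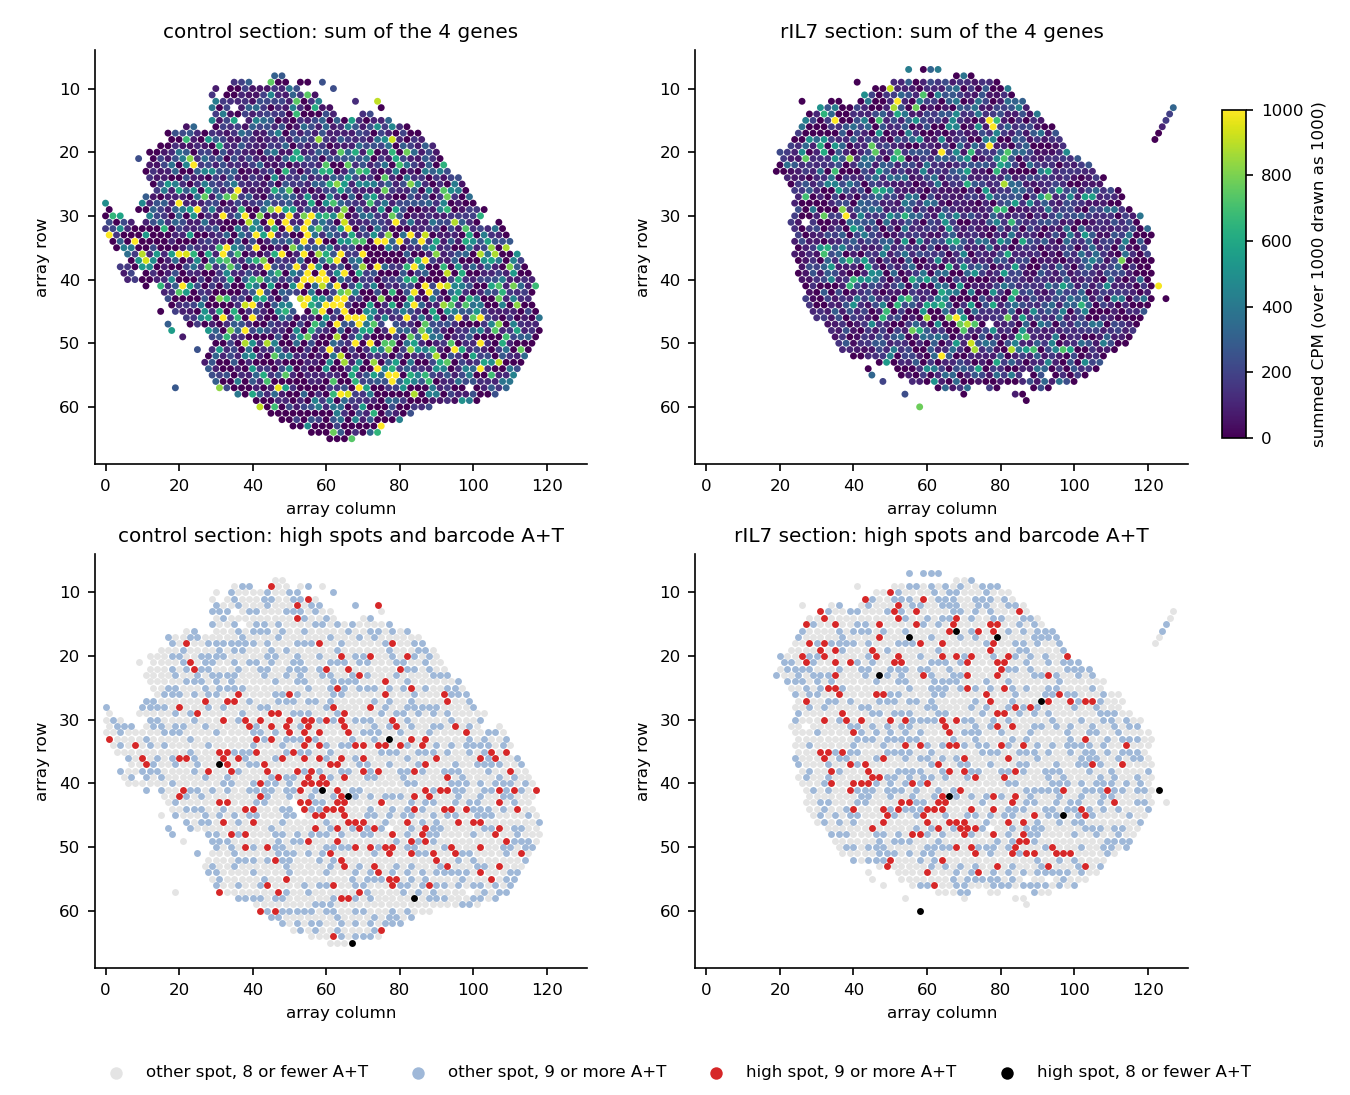
Each dot is a spot at its array column and row, in the control tumor on the left and the rIL7 section on the right. The upper maps show the summed CPM of the 4 genes, with values over 1000 drawn as 1000, and the lower maps show high spots whose barcode holds 9 or more A+T bases in red (216 and 186), high spots with 8 or fewer in black (6 and 9), and the other spots in blue or gray by the same division. High spots are scattered among low neighbors, with a denser area near the center of the control section.

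The largest connected group held 15 spots in the control tumor, between rows 41 and 47 and columns 57 and 70. Its spot nearest to the outline of the tissue lay 15 grid steps inside it. Its spots averaged 1250 CPM of the 4 genes, and the 29 spots touching it averaged 250 CPM. Of those 15 spots 14 had barcodes with 9 or more A+T bases, compared with 11 of the 29 spots around them (37.9%). The next group in the control tumor, of 9 spots between rows 38 and 41, had 1393 CPM beside 157 CPM around it, with 8 of 9 and 5 of 18 spots above the same A+T limit. In the rIL7 section the largest group also held 9 spots, with 573 CPM beside 124 CPM. Since every spot touching a group lies outside the threshold by the rule, the difference in level is a description only.

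Levels were also read by distance from the nearest high spot. In the control section the 4 genes stood at 947 CPM in the high spots, 193 CPM (183 to 203) at 1 step from the nearest of them, 189 CPM at 2 steps and 151 CPM (139 to 165) at 3 steps. In the rIL7 section the values were 594, 146 (138 to 154), 140 and 134 CPM (123 to 146). The step from the high spots to the others is set by the rule. Among the other spots the level at 3 steps lay below that at 1 step in the control tumor, and the intervals overlapped in the rIL7 tumor. At 4 steps it was 152 CPM (134 to 172) in the control and 96.6 CPM (82.5 to 112) in the rIL7 tumor, below 1 step in both. Spots within 2 grid steps of the outline made up 8.90% of spots at 1 step and 46.9% at 4 steps in the control. In the rIL7 tumor they made up 7.29% and 62.3%, and their part in the fall was not tested. When spots were ranked by their neighbors alone, with their own counts left out, the top 10% had an own level 1.47 times (1.35 to 1.60) that of the other spots in the control and 1.39 times (1.27 to 1.52) in the rIL7 tumor, so a smaller part of the level was shared with the surroundings.

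Other gene sets were more contiguous under the same rule. For the 7 genes of MHC class II, the neighbor share of the top 10% was 38.2% in the control and 66.7% in the rIL7 tumor, and for 20 proliferation genes it was 23.6% and 22.6%. For Rpl39l and Baiap2l1, which mark CT26 cells, it was 11.9% and 16.8%, close to the values of the 4 genes. Correlations between spots 1 step apart, given as a description over 6382 and 5609 pairs of spots, were 0.08 and 0.07 for the 4 genes and 0.68 and 0.69 for MHC class II. The barcodes with 9 or more A+T bases had 42.2% and 44.1% of neighbors of their own kind, beside 41.7% and 42.6% of all spots, which shows that barcode composition had almost no arrangement of its own on the array.

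**Figure D2:**
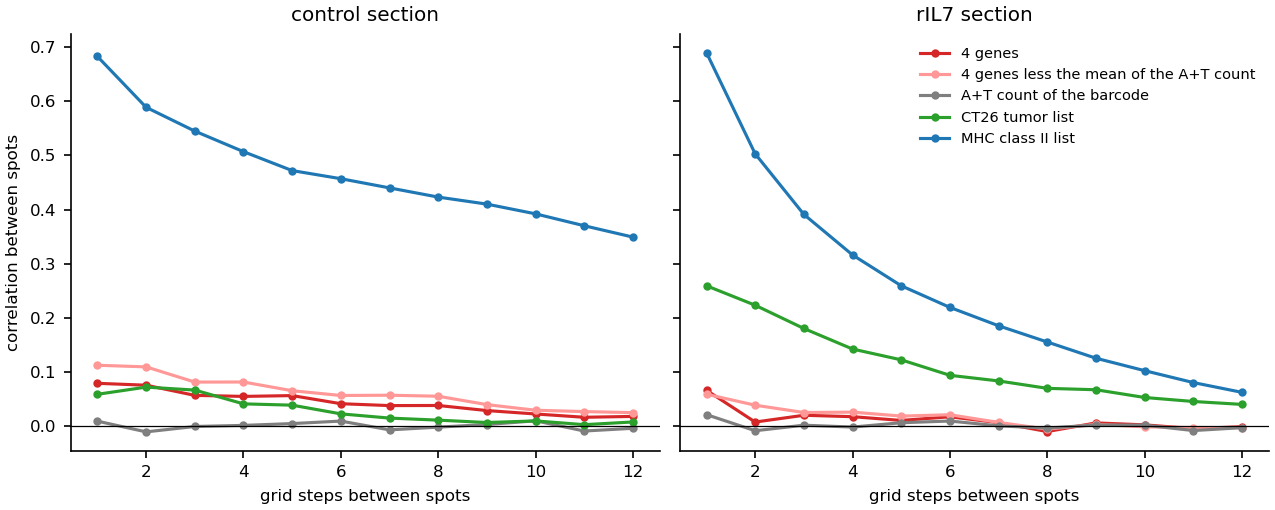
Correlation of a measure between pairs of spots (vertical axis, no unit) against the number of grid steps between them (horizontal axis, 1 to 12), in the control tumor on the left and the rIL7 section on the right. The MHC class II list starts at 0.68 and 0.69, the 4 genes at 0.08 and 0.07, the 4 genes after subtracting the mean of spots with the same A+T count at 0.11 and 0.06, and the A+T count itself lies near 0 at every distance.

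High spots were rare at the rim of the tumor. Edge spots, within 2 grid steps of the outline, made up 6.76% of high and 19.9% of other spots in the control tumor, and 7.18% and 19.2% in the rIL7 tumor. The summed level of the 4 genes at the edge was 0.632 times (0.585 to 0.683) that of the interior in the control and 0.651 times (0.592 to 0.714) in the rIL7 tumor. The same direction held within either class of barcode. Among spots with 8 or fewer A+T bases the ratio was 0.782 (0.678 to 0.899) and 0.725 (0.621 to 0.844), and among those with 9 or more it was 0.605 (0.551 to 0.663) and 0.640 (0.567 to 0.719). Of the 4 genes, Leng9 had the lowest ratio at the edge, 0.517 (0.416 to 0.636) and 0.489 (0.365 to 0.644), while the interval of Dynlt1a in the rIL7 tumor, 0.825 (0.560 to 1.18), included 1.

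Barcode composition separated high from other spots far more sharply than position did. Barcodes in the files held 4 to 12 A+T bases of 16. Of the 222 high spots in the control tumor 216 (97.3%) had 9 or more, compared with 35.5% of the other spots, and in the rIL7 tumor 186 of 195 (95.4%) had 9 or more, compared with 36.8%. The limit of 9 was set after the data were seen. In the control section the share of high spots was 0.680% (0.141 to 1.98) of spots with 8 A+T bases, 9.24% (6.68 to 12.4) with 9, 28.6% (23.4 to 34.2) with 10, 42.3% (34.2 to 50.6) with 11 and 55.4% (41.5 to 68.7) with 12. In the rIL7 section the same shares were 2.06%, 8.16%, 30.9%, 37.8% and 51.1%. With 7 or fewer A+T bases 3 of 853 control spots and 1 of 730 rIL7 spots were high.

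The 4 genes each had higher levels in A+T-rich barcodes, although the size of the rise differed among them. The sum rose slowly up to 8 A+T bases and faster from 9 upward. Ankmy1 already rose below that limit in the control tumor, from 1.498 CPM with 4 A+T bases to 10.01 CPM with 8, before reaching 132 CPM with 12. In the rIL7 tumor Dynlt1a and Ankmy1 had no higher level with 12 bases (28.6 and 54.3 CPM) than with 11 (36.7 and 57.3 CPM). In spots with 12 A+T bases the sum reached 713 CPM in the control tumor, beside 82.8 CPM with 5 and 124 CPM with 8, and in the rIL7 tumor it reached 451 CPM beside 87.1 and 127.1 CPM. Spots with 9 or more A+T bases exceeded those with 8 or fewer 13.3 times (9.50 to 19.1) for Dynlt1a and 11.0 times (8.86 to 13.9) for Ankmy1 in the control tumor, and 9.07 times (6.27 to 13.5) and 7.48 times (5.80 to 9.76) in the rIL7 tumor. For Leng9 the ratios were 3.84 (3.31 to 4.47) and 3.11 (2.63 to 3.69), and for Pam 3.18 (2.96 to 3.42) and 2.12 (1.97 to 2.27). Dynlt1a was nearly absent outside these barcodes, with 38 of its 400 UMIs in the control and 33 of 259 in the rIL7 tumor falling in the 1294 and 1119 spots with 8 or fewer A+T bases.

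**Figure D3:**
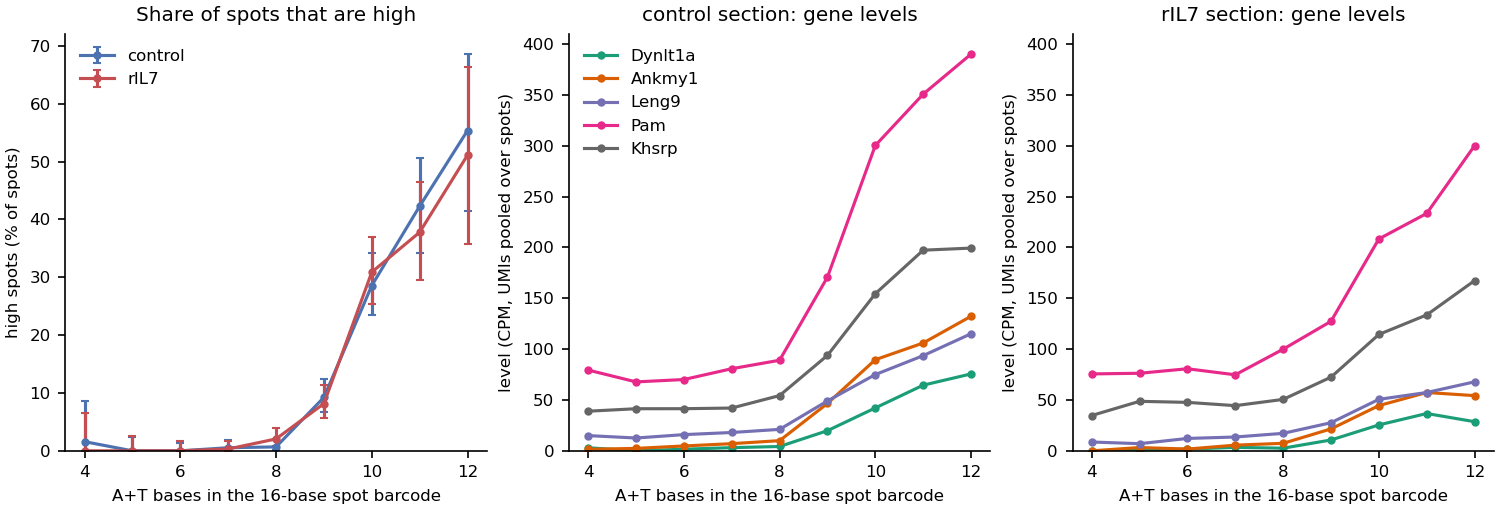
The left plot shows the percentage of spots that were high (vertical axis, with 95% binomial intervals) against the number of A+T bases in the barcode of 16 (horizontal axis), in both sections. The middle and right plots show the level of Dynlt1a, Ankmy1, Leng9, Pam and Khsrp in CPM for the control and rIL7 sections, and in both the levels are higher with 9 to 12 A+T bases than with 8 or fewer. Dynlt1a and Ankmy1 end slightly lower at 12 than at 11 in the rIL7 plot, at 28.6 and 54.3 CPM.

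Other properties of the spots did not move with the A+T count in this way. Spearman's correlation of the A+T count with the summed level of the 4 genes, given as a description over 2219 and 1950 spots, was 0.61 in the control and 0.52 in the rIL7 tumor. With the depth of the spot it was 0.04 and 0.01, with the distance from the outline 0.03 and 0.03, and with the MHC class II level -0.03 and -0.01. The median depth was 9763 UMIs in control spots with 9 or more A+T bases and 9544.5 in those with 8 or fewer, and 13255 and 12739 in the rIL7 tumor. The kind of base was also read among spots with 9 or more A+T bases. Where A outnumbered T 22.6% were high and where T outnumbered A 21.3% in the control tumor, and 22.8% and 19.2% in the rIL7 tumor. The gap was wider for the other pair of bases, with 25.3% (21.1 to 29.9) high where G outnumbered C and 18.9% (15.2 to 23.0) where C outnumbered G in the control tumor, and 24.0% (19.6 to 28.7) and 16.2% (12.6 to 20.3) in the rIL7 tumor. Barcodes with more G held a mean of 9.64 and 9.62 A+T bases, and those with more C 9.79 and 9.82. Among spots with 10 A+T bases, the share of high spots was 27.8% (17.9 to 39.6) where more of them lay in the leading 8 bases and 25.6% (16.9 to 35.8) where more lay in the trailing 8 in the control tumor, and 28.4% (18.5 to 40.1) and 31.5% (21.1 to 43.4) in the rIL7 tumor.

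Because a barcode holds the same place on both arrays, the sections could be compared barcode by barcode although they came from different tumors. Of the 198 shared barcodes that were high in the control tumor 73 (36.9%) were high in the rIL7 tumor too, which was 39.7% of the 184 high there, whereas 7.39% of the barcodes that were not high in the control were high in the rIL7 tumor. Of these 73 barcodes 72 had 9 or more A+T bases, and of the 105 barcodes with no UMI of the 4 genes in either section 10 had (9.52%), compared with 42.6% of all shared barcodes. No such excess was seen 1 grid step away, where 11.9% of the rIL7 spots next to the place of a high control spot were high, beside 10.9% overall. Spearman's correlation of the level between sections was 0.44 over the 1701 shared barcodes, 0.16 over the 221 with exactly 10 A+T bases and 0.05 over the 977 with 8 or fewer, again as a description. Whether the sequence of the barcode itself, rather than something else fixed to that array position, accounts for the shared levels was not tested.

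The coupling among the 4 genes was much smaller once the A+T count was held constant. With the top 10% chosen within each A+T count on the other 3 genes, an alternative chosen after the data were seen, the pooled ratio of the left-out gene was 1.55 (1.43 to 1.68) in the control and 1.28 (1.17 to 1.41) in the rIL7 tumor, compared with 3.15 and 2.52 without that restriction. Dynlt1a gave 1.3965 (1.0004 to 1.91) and 1.23 (0.795 to 1.84), so that in the rIL7 tumor its interval included 1. Ankmy1 gave 1.77 (1.44 to 2.17) and 1.46 (1.09 to 1.92), Leng9 1.79 (1.47 to 2.17) and 1.44 (1.13 to 1.82), and Pam 1.504 (1.35 to 1.67) and 1.254 (1.12 to 1.405). High spots chosen in this way had a neighbor share of 14.8% (12.9 to 16.8) in the control and 11.3% (9.48 to 13.3) in the rIL7 tumor. A weaker joint variation of the 4 genes thus remained among spots with equal A+T counts. By neighbor share, weak clustering on the array remained in the control tumor, while the rIL7 interval included the share of all spots. Other measures kept a weak clustering in the rIL7 tumor too. After subtracting the mean of the A+T count, the correlation 1 step apart was 0.11 in the control and 0.06 in the rIL7 tumor. The own level of rIL7 spots ranked by their neighbors stayed at 1.21 times or more in every alternative, those within A+T counts included.

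All other genes were then compared between high and other spots. A gene was tested when its mean over both sections was at least 20 CPM, which left 7610 genes, and it was called higher at a ratio of at least 1.5 and lower at 1/1.5 or less. In the control section 112 genes (1.47%) were higher and 62 (0.815%) lower, and in the rIL7 tumor 42 (0.552%) were higher and 39 (0.512%) lower. Scaling moved this balance, with 92 genes higher and 97 lower in the control tumor and 35 and 47 in the rIL7 tumor under TMM, and 92 and 93 in the control under median-of-ratios scaling. In both sections 36 genes were higher, 8 were lower and 0 were called in opposite directions. Most genes did not differ between the spots, the median log2 ratio over all tested genes being 0.02 in either section. The 35 of these 36 genes with a place in RefSeq lay on 16 of 20 chromosomes, with at most 4 on any of them.

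Among the genes higher in both sections, 4 of the 12 with the largest ratios are known to act on mRNA, a grouping made after the genes were seen. The share of such genes among all tested genes was not counted, so the number is not read as a result. Khsrp (chr17:57021049-57031507), a KH-domain protein that binds AU-rich elements and promotes mRNA decay, had 197 CPM in high and 73.1 CPM in other spots of the control section, a ratio of 2.70 (2.41 to 3.02). In the rIL7 section it had 147 and 62.3 CPM, a ratio of 2.36 (2.10 to 2.65), and over the 4 quadrants of each section the ratio ran from 2.52 to 2.88 and from 2.12 to 2.56. Quadrants show the spread within a section and are not replicates. Pan3 (chr5:147426208-147548501), a subunit of a poly(A)-shortening nuclease, reached 2.39 (2.13 to 2.67) and 1.86 (1.65 to 2.09), and Paip1 (chr13:119428331-119460323), which binds the poly(A)-binding protein, 2.57 (2.06 to 3.18) and 1.93 (1.54 to 2.41). Prrc2c (chr1:162671785-162740560), a protein of RNA granules, reached 2.60 (2.33 to 2.90) and 2.02 (1.799 to 2.27). No list of such genes was tested, and the wider list of 17 KH-type and AU-rich element binding genes is described further on.

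The other 8 of these 12 genes, which were ranked by the lower ratio of the 2 sections, had varied roles. Mybl1 (chr1:9667407-9700439), a transcription factor of the MYB family, had the highest ratio in the control tumor, 3.13 (2.60 to 3.74), and 1.79 (1.43 to 2.23) in the rIL7 tumor. Cdkn1b (chr6:134920401-134925525), the cyclin-dependent kinase inhibitor p27, reached 2.35 (1.94 to 2.84) and 2.18 (1.78 to 2.65), and Fhl3 (chr4:124695964-124708611), a LIM domain protein, 2.37 (2.08 to 2.68) and 2.19 (1.91 to 2.50). Among genes of lipid metabolism and membranes, Tlcd1 (chr11:78176716-78181019) reached 2.30 and 2.22, Abhd2 (chr7:79273266-79361601), a serine hydrolase, 2.46 and 1.87, and Agpat1 (chr17:34604195-34613449), an acyltransferase of phospholipid synthesis, 2.25 and 1.803. Ap4m1 (chr5:138172021-138180429), a subunit of the AP-4 vesicle adaptor, reached 2.42 and 1.79, and Gm12940, which had no match in RefSeq, 2.61 and 1.93. Quadrant ratios of these 12 genes were over 1 in every quadrant of both sections.

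The same genes followed the A+T count of the barcode. Spots with 9 or more A+T bases were set against those with 8 or fewer for all 7610 genes. In the control section 66 genes (0.867%) were higher and 1 (0.0131%) lower, and in the rIL7 tumor 27 (0.355%) were higher and 0 (0%) lower, with 25 higher in both. The 1 lower gene, the immunoglobulin gene Ighg2c, had 2 UMIs in the control tumor and a ratio of 1.68 in the other direction in the rIL7 tumor. This contrast uses the same spots as that of high and other spots, so the values are set side by side only. Khsrp had A+T ratios of 2.97 (2.70 to 3.27) and 2.14 (1.94 to 2.35) beside its high-spot ratios of 2.70 and 2.36, and Cdkn1b 2.62 (2.25 to 3.06) and 1.86 (1.59 to 2.17) beside 2.35 and 2.18. Over the 36 genes higher in both sections the A+T ratio had a median of 1.98 in the control (range 1.22 to 2.97) and 1.53 in the rIL7 tumor (1.12 to 2.30).

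Genes called in a section can be read in the other section without that overlap of spots. The 112 genes higher in high spots of the control section had a median A+T ratio of 1.29 in the rIL7 tumor, 105 of them over 1, beside a median of 0.995 over all tested genes. The 42 genes higher in the rIL7 tumor had a median A+T ratio of 1.93 in the control tumor, with 39 over 1 and 34 at or above 1.5. For the genes that were lower the A+T ratio lay near 1, with medians of 0.983 for the 62 control genes read in the rIL7 tumor and 0.988 for the 39 rIL7 genes read in the control tumor. The genes raised in high spots were thus raised with the A+T count in the other tumor, and the lowered genes were not.

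An abundant gene showed the same dependence at high precision. Actb (chr5:142903115-142907976), which encodes beta-actin, had 7551 CPM in high and 3818 CPM in other spots of the control section, a ratio of 1.98 (1.94 to 2.01), and 6326 and 4249 CPM in the rIL7 tumor, a ratio of 1.49 (1.46 to 1.51). In spots with 9 or more A+T bases it had 5967 CPM in the control tumor and 5633 CPM in the rIL7 tumor, and in those with 8 or fewer 2831 and 3541 CPM. It was named after its values were seen, for its depth of 95035 and 114268 UMIs. The 66 and 27 genes raised with the A+T count together took 1.19% of UMIs in control spots with 9 or more A+T bases against 0.595% in the others, and 0.774% against 0.483% in the rIL7 tumor, so the change touched a small part of the library.

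**Figure D4:**
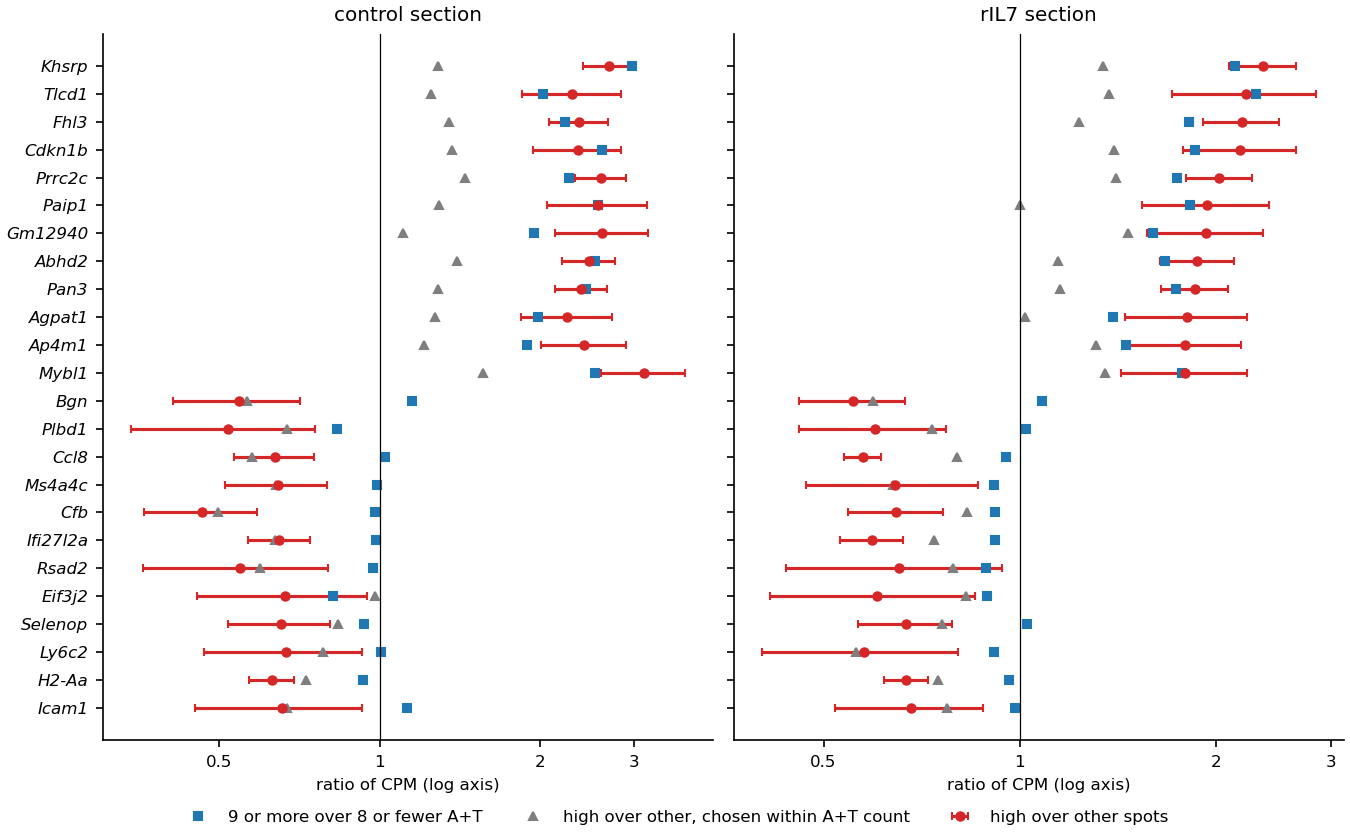
Ratio of CPM on a log axis for the 12 genes highest and the 12 lowest in high spots of both sections, in the control tumor on the left and the rIL7 section on the right. Red circles with 95% counting intervals give high over other spots, blue squares spots with 9 or more over 8 or fewer A+T bases, and gray triangles high over other spots chosen within each A+T count. For the upper 12 genes blue squares lie near the red circles and the triangles nearer to 1, and for the lower 12 the blue squares lie near 1 and the triangles at or below it.

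Choosing the high spots within each A+T count changed which genes stood out. In the control section 15 genes (0.197%) were then higher and 54 (0.71%) lower, and in the rIL7 tumor 1 (0.0131%) was higher and 22 (0.289%) lower. No gene was higher in both sections, and 3 were lower in both, namely Ccl5, Ms4a4c and Bgn. Over the 36 genes above, the median ratio dropped from at least 1.5 by their definition to 1.29 in the control and 1.14 in the rIL7 tumor. Khsrp kept a ratio of 1.29 (1.11 to 1.49) and 1.34 (1.15 to 1.55), and Mybl1 1.56 (1.23 to 1.96) and 1.35 (1.04 to 1.73). Paip1 had 1.29 (0.966 to 1.70) and 0.999 (0.737 to 1.33), intervals that included 1.

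The 12 genes lowest by the less extreme of their 2 ratios included genes known from immune and stromal cells. Of these 12, the 8 called lower in both sections were Cfb, Ccl8, Bgn, Ifi27l2a, Rsad2, Ms4a4c, Plbd1 and Eif3j2, while Ly6c2, H2-Aa, Selenop and Icam1 passed the limit of 1/1.5 in 1 section only. Cfb (chr17:34856374-34862514), complement factor B, had 36.3 CPM in high and 78.1 CPM in other spots of the control section, a ratio of 0.465 (0.362 to 0.589), and 63.7 and 98.7 CPM in the rIL7 tumor, a ratio of 0.646 (0.544 to 0.761). Ccl8 (chr11:82115185-82116799), a chemokine that draws monocytes, had ratios of 0.636 (0.533 to 0.753) and 0.575 (0.538 to 0.613). Bgn (chrX:73483601-73495936), the matrix proteoglycan biglycan, had 0.544 (0.411 to 0.709) and 0.555 (0.458 to 0.667). Since a spot is a mixture of cells, fewer cells of a type and less RNA per cell cannot be told apart for any of these genes. None of the 3 moved with the A+T count beyond 1.15 times in either direction, and each stayed lower when high spots were chosen within A+T counts, at 0.497, 0.576 and 0.563 in the control and 0.828, 0.801 and 0.595 in the rIL7 tumor. With interior spots alone and equal A+T counts they stood at 0.472, 0.599 and 0.585 in the control, but in the rIL7 tumor the intervals of Cfb (0.917, 0.756 to 1.103), Ccl8 (0.965, 0.898 to 1.04) and Bgn (0.810, 0.628 to 1.03) all included 1.

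Others are known to respond to interferon or to mark myeloid cells. Ifi27l2a (chr12:103433873-103443680) had ratios of 0.648 (0.566 to 0.740) and 0.593 (0.530 to 0.661), and Rsad2 (chr12:26442743-26456452), the antiviral protein viperin, 0.547 (0.360 to 0.799) and 0.653 (0.438 to 0.939). Ms4a4c (chr19:11404717-11427246) had 0.644 and 0.643, Plbd1 (chr6:136612071-136662303) 0.519 and 0.599, and Ly6c2 (chr15:75108161-75112066), a marker of inflammatory monocytes, 0.669 and 0.576. H2-Aa (chr17:34282744-34287823), a chain of the MHC class II molecule, had 230 and 366 CPM in the control, a ratio of 0.628 (0.570 to 0.690), and 292 and 436 CPM in the rIL7 tumor, a ratio of 0.669 (0.619 to 0.723). Selenop (chr15:3270767-3280510), Icam1 (chr9:21015940-21028814) and Eif3j2 completed the 12 genes, with ratios between 0.604 and 0.681 over both sections. Edge spots held 30.6% and 86.2% of the top 10% of spots for MHC class II but 6.76% and 7.18% of the spots high in the 4 genes, and with interior spots alone and equal A+T counts H2-Aa stood at 0.713 (0.642 to 0.790) in the control and 0.896 (0.817 to 0.982) in the rIL7 tumor.

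Gene lists gave the levels of whole pathways and cell types, as the ratio of summed CPM between high and other spots. Several immune lists were lower in high spots. The 7 genes of MHC class II together stood at 0.7001 (0.678 to 0.723) in the control and 0.738 (0.719 to 0.758) in the rIL7 tumor, with 6 of 7 and 7 of 7 genes below 1. Cd74, the invariant chain, had 999 CPM in high and 1416 CPM in other spots of the control and 1229 and 1608 CPM in the rIL7 tumor. The 12 macrophage genes stood at 0.805 (0.785 to 0.827) and 0.803 (0.785 to 0.821), with 11 and 12 genes below 1, and the 9 NK cell genes at 0.764 (0.686 to 0.849) and 0.695 (0.648 to 0.744). The interferon response list had all 18 genes below 1 in the control tumor, at 0.679 (0.647 to 0.713), and 15 of 18 in the rIL7 tumor, at 0.849 (0.820 to 0.879). As background, the median log2 ratio of all genes counted for list medians was 0.02 in the control and 0.00 in the rIL7 tumor, and that of the interferon list was -0.48 and -0.31.

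Most of these decreases persisted at equal A+T count and were smaller in the interior of the rIL7 section. With interior spots only and high spots chosen within A+T counts, MHC class II stood at 0.781 (0.754 to 0.808) in the control and 0.935 (0.907 to 0.964) in the rIL7 tumor. Macrophage genes stood at 0.852 (0.828 to 0.877) and 0.931 (0.908 to 0.955), and interferon genes at 0.719 (0.679 to 0.761) and 0.957 (0.920 to 0.995). The A+T contrast moved the same lists little, with ratios of 0.928 and 1.01 for class II genes, 0.973 and 0.985 for the macrophage list and 0.975 and 0.997 for interferon genes. How much of the deficit of immune transcripts was due to the position of high spots was not tested further.

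Transcripts encoded by the mitochondrial genome were also lower. Together 13 of them stood at 0.692 (0.669 to 0.716) in the control and 0.850 (0.820 to 0.882) in the rIL7 tumor. The gene mt-Co3, a subunit of cytochrome oxidase, fell from 490 to 301 CPM and from 329 to 269 CPM. With high spots chosen within A+T counts the list stood at 0.733 (0.709 to 0.758) in the control. In the rIL7 tumor it then stood nearer to 1, at 0.940 (0.907 to 0.975), with 4 of 11 counted genes above 1. The 16 nuclear genes of oxidative phosphorylation stood at 0.952 (0.935 to 0.969) and 0.978 (0.962 to 0.994), close to 1. The nuclear-retained RNA Neat1 went the other way, at 1.26 (1.20 to 1.31) and 1.14 (1.09 to 1.18), and its A+T ratios were 1.03 and 0.995. The share of mitochondrial RNA is often read as a sign of RNA quality, and its part in the other differences was not tested.

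**Figure D5:**
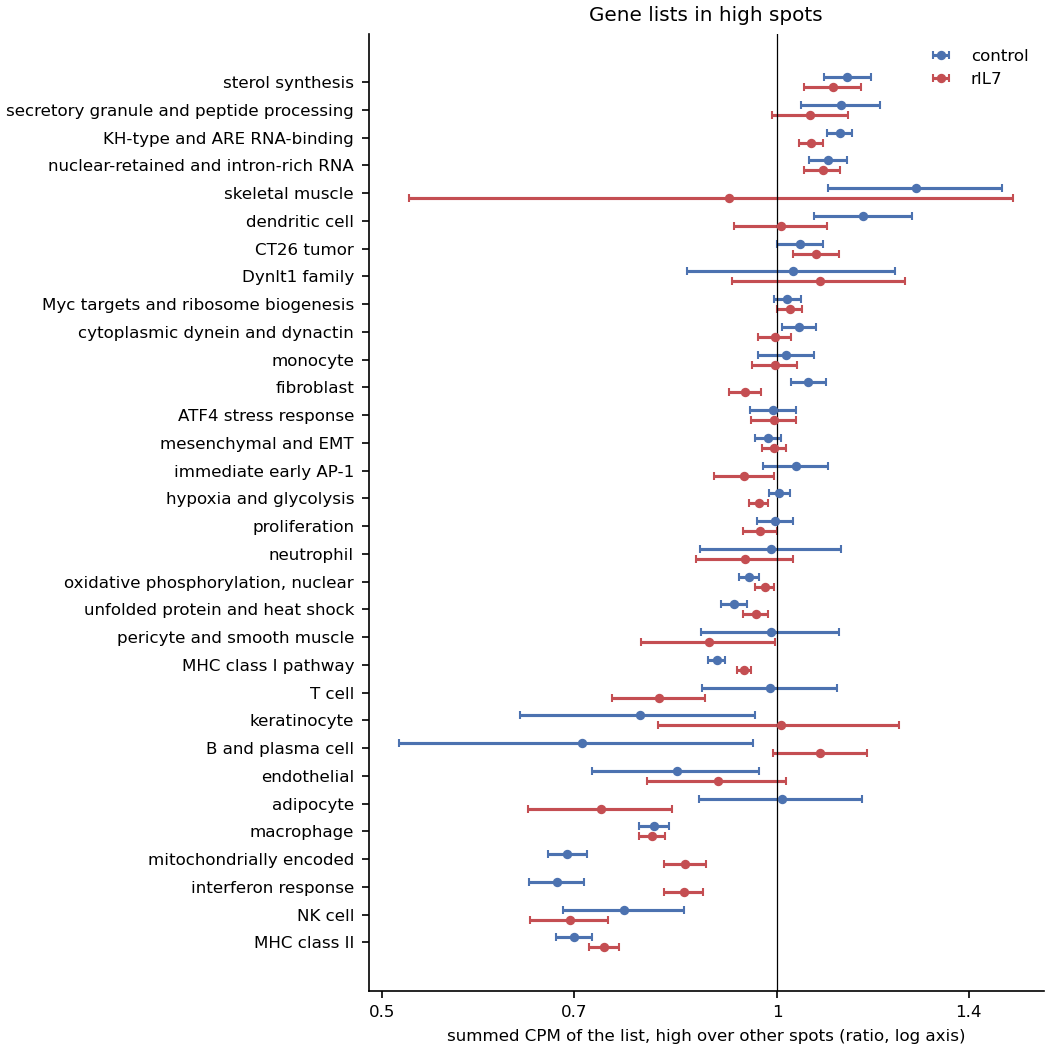
Ratio of the summed CPM of each gene list in high over other spots, on a log axis, for the control section in blue and the rIL7 section in red, with 95% counting intervals. Lists are ordered by the product of both ratios, from MHC class II at the bottom (0.7001 and 0.738) to sterol synthesis at the top (1.13 and 1.103). Epithelial and red blood cell lists are not drawn because of their few UMIs.

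Other lists stood above 1 in 1 or both sections. The 14 sterol synthesis genes stood at 1.13 (1.09 to 1.18) in the control and 1.103 (1.05 to 1.16) in the rIL7 tumor, with 10 and 11 genes above 1. Insig1, which restrains sterol synthesis, had 150 against 75.6 CPM in the control tumor and 50.7 against 35.5 CPM in the rIL7 tumor, with A+T ratios of 1.78 and 1.28, while Sqle, an enzyme of the pathway, had ratios of 0.939 and 1.07. The 17 KH-type and AU-rich element binding genes stood at 1.12 (1.09 to 1.14) and 1.06 (1.04 to 1.08), and of these Khsrp alone was called higher, Hnrnpa1 having 1.42 and 1.18. The fibroblast list stood at 1.06 (1.02 to 1.09) and 0.945 (0.920 to 0.972), and its member Pdpn, the membrane glycoprotein podoplanin, at 1.94 (1.77 to 2.13) and 1.53 (1.39 to 1.68) with A+T ratios of 1.73 and 1.39. The dendritic cell list stood at 1.16 (1.07 to 1.27) in the control and 1.01 (0.927 to 1.09) in the rIL7 tumor, with 3 of 6 and 2 of 9 counted genes above 1 and a median log2 ratio of 0.01 and -0.60, and its member Fscn1 at 1.32 and 1.097. With high spots chosen within A+T counts these 4 lists stood between 0.947 and 1.05 in both sections. The sum of nuclear-retained RNAs, at 1.094 (1.06 to 1.13) and 1.08 (1.05 to 1.12), instead had A+T ratios of 1.01 and 0.986. Within A+T counts it stood at 1.14 and 1.095. Only 3 of 6 counted genes were above 1 in either section, with a median log2 ratio of 0.06 and -0.02, so the list was not raised as a whole. The secretory granule and peptide processing list stood at 1.12 (1.04 to 1.198) and 1.06 (0.991 to 1.13), and at 1.14 and 0.994 within A+T counts.

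Tumor cell lists differed little between high and other spots. Rpl39l had 437 and 431 CPM in the control tumor and 393 and 377 CPM in the rIL7 tumor, and Baiap2l1 905 and 857 CPM and 717 and 659 CPM. Both genes together stood at 1.04 (1 to 1.08) and 1.07 (1.03 to 1.12). Of the high spots 23 (10.4%) in the control and 25 (12.8%) in the rIL7 tumor were also in the top 10% for these genes, near the 10.0% of all spots, as against 11 (4.95%) and 6 (3.08%) for MHC class II. Epithelial genes were nearly absent from both sections, with 9 genes adding up to 6.05 CPM or less in high and in other spots, so they could not mark the carcinoma cells. Proliferation stood at 0.996 (0.965 to 1.03) and 0.971 (0.943 to 0.999), hypoxia and glycolysis at 1.004 (0.985 to 1.02) and 0.968 (0.952 to 0.985), and Myc targets at 1.02 and 1.02, all within 1.1 times of equal levels.

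The remaining lists gave small or uncertain ratios of summed CPM, although most counted monocyte genes were below 1. T cell genes stood at 0.988 (0.877 to 1.11) in the control and 0.812 (0.749 to 0.881) in the rIL7 tumor, where all 12 were below 1, and the MHC class I pathway at 0.899 (0.885 to 0.913) and 0.943 (0.931 to 0.956). Endothelial genes stood at 0.839 (0.722 to 0.969) and 0.901 (0.796 to 1.02), pericyte and smooth muscle genes at 0.990 (0.875 to 1.11) and 0.887 (0.787 to 0.997), and neutrophil genes at 0.990 and 0.946. At equal A+T count the neutrophil list stood at 1.30 (1.16 to 1.46) in the control and 0.995 (0.912 to 1.08) in the rIL7 tumor. Of the stress programs, the unfolded protein and heat shock list stood at 0.927 and 0.963, the ATF4 list at 0.993 and 0.994, and immediate early genes at 1.03 and 0.944. Mesenchymal genes stood at 0.984 and 0.994. Monocyte genes summed to 1.02 (0.968 to 1.07) and 0.996 (0.957 to 1.04), a sum carried by Fn1. However, 5 of 7 and 6 of 7 counted genes were below 1. Their median log2 ratio was -0.30 and -0.60, beside -0.24 and -0.26 for the macrophage list. Of the 6 tested monocyte genes 1 and 3 were called lower, beside 0.815% and 0.512% of all tested genes. Lists of cells found in part of a section were the least certain: skeletal muscle 1.28 (1.09 to 1.48) and 0.919 (0.524 to 1.51), with 1.43 in the control at equal A+T count, keratinocyte 0.786 (0.637 to 0.962) and 1.01 (0.811 to 1.24), adipocyte 1.01 (0.872 to 1.16) and 0.734 (0.646 to 0.832), and B and plasma cells 0.710 (0.515 to 0.958) and 1.08 (0.993 to 1.17).

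Genes related to the 4 by function mostly lay near a ratio of 1. Among 19 cytoplasmic dynein and dynactin genes, of which 18 were tested, 1 was called higher in the control tumor, where 1.47% of all tested genes were called higher, and 0 in the rIL7 tumor. This gene, Dctn4, had ratios of 1.53 and 1.23 and an A+T ratio of 1.59 in the control, and the list stood at 1.04 (1.01 to 1.07) and 0.995 (0.967 to 1.02). Of the near-identical copies of Dynlt1a, Dynlt1b had 0.959 CPM in the control tumor and 0.933 CPM in the rIL7 tumor and Dynlt1f stood at 1.27 (0.917 to 1.72) and 0.9604 (0.682 to 1.32), with A+T ratios of 1.01 and 0.931. A wider Dynlt1 family list without Dynlt1a stood at 1.03 (0.853 to 1.23) and 1.08 (0.924 to 1.252). This list had 64.8 CPM in other spots of the control section, where Dynlt1f had 19.1 CPM over all spots. Most of the list level thus came from outside the copies named here, and its ratio does not describe those copies. Reads shared among such copies can be assigned to any of them or dropped, so the level of Dynlt1a itself is uncertain. Of the genes that act with Pam in peptide processing, Cpe, which trims peptide ends, stood at 1.13 (1.04 to 1.23) and 1.02 (0.934 to 1.11), Furin, which cleaves precursors, at 1.22 and 1.18, and the convertase genes Pcsk1 and Pcsk2 had at most 2 UMIs in any section.

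Genes near the 4 in the genome gave a narrower pattern. Within 500 kb of the 4 lay 82 annotated genes, of which 24 were tested, and 3 were called higher in the control tumor and 0 in the rIL7 tumor, beside 1.47% and 0.552% of all tested genes. These 3, named after their values were seen, were the tested genes that overlap a member or end within 1000 bases of it. Tmem181a (chr17:6256726-6308314), which overlaps Dynlt1a by 1971 bases in the annotation, stood at 1.63 (1.35 to 1.96) and 1.42 (1.16 to 1.74). Gpc1 (chr1:92831645-92860211), a glypican that overlaps Ankmy1 by 372 bases, stood at 1.79 (1.65 to 1.95) and 1.33 (1.22 to 1.46), and Leng8 (chr7:4137013-4148177), which ends 5 bases from Leng9, at 1.53 (1.39 to 1.67) and 1.20 (1.09 to 1.32). Reads that fall where annotated genes overlap cannot be placed with certainty from the deposited counts. B230216N24Rik (chr1:98031123-98047793), which lies wholly within Pam, was too low to test. Around Pam the only tested gene, Ppip5k2, which lies 50679 bases away, stood at 0.900 (0.656 to 1.21) and 1.16 (0.879 to 1.502). Such adjacency was no rarer elsewhere, since 5002 of 7526 placed genes (66.5%) and 21 of 35 placed genes among the 36 (60.0%) had another gene within 1000 bases.

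The sections were last set side by side for the 4 genes. Over whole sections their summed level was 245 CPM in the control tumor and 180 CPM in the rIL7 tumor, 1.36 times as high in the control (1.31 to 1.42). It was seen in the spots with A+T-rich barcodes. With 9 or more A+T bases the level was 436 CPM in the control tumor and 278 CPM in the rIL7 tumor, a ratio of 1.57 (1.498 to 1.64), and with 8 or fewer it was 108 and 105 CPM, a ratio of 1.02 (0.9497 to 1.098). For Pam the ratio was 1.42 (1.34 to 1.51) in the former and 0.944 (0.869 to 1.02) in the latter, and for Khsrp 1.36 (1.251 to 1.47) and 0.976 (0.874 to 1.09). Dynlt1a had 1.85 (1.56 to 2.19) and 1.26 (0.771 to 2.08), Ankmy1 2.07 (1.83 to 2.35) and 1.41 (1.02 to 1.94), and Leng9 1.64 (1.46 to 1.85) and 1.33 (1.097 to 1.61). With 1 section per group, the treatment, the mouse, the section and the library cannot be told apart as the source of these differences.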

How the data were processed

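Spatial gene expression was measured with Visium in 1 control and 1 rIL7 tumor section, as described above. The deposited files give unnormalized UMI counts for every gene in every spot, which the authors obtained with Space Ranger 1.1.0 (version from the submitters' processing notes) against mouse mm10. In-tissue flags and array positions were used as deposited. Spots in tissue with over 200 detected genes were kept, removing 2 control spots and 1 rIL7 spot. UMIs were summed over spots and scaled to CPM. Intervals are 95% exact binomial (Clopper-Pearson) for shares and ratios and exact Poisson for levels, and cover counting error only. Those of neighbor shares treat pairings of neighboring spots as independent and are too narrow. The members and gene lists were chosen with earlier results of these data known, so nothing here is independent of those results.

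Genes were named by rule: the 4 members, Khsrp, the 12 genes highest and the 12 lowest by the less extreme of the 2 section ratios, genes within 500 kb of a member, dynein genes, and members of the 34 lists described. The A+T count was the number of A and T bases in the deposited barcode, and the alternatives that use it, or that keep only barcodes held by both sections, were chosen after seeing the data. Per-list alternatives were run where the interval left out 1 and the ratio was at least 1.1 either way, also a later choice. RefSeq coordinates of GRCm38 were matched by symbol (7526 of 7610 tested genes, 98.9%). Scripts ran in Python 3.11.15 with numpy 2.4.6, scipy 1.17.1 and pandas 2.3.3, and TMM factors came from edgeR 4.0.16 in R 4.3.3. The ratio script was tested on simulated data. No test was possible with 1 section per group.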

Additional observations from a re-analysis of the deposited data

Results flagged for a closer look

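The fibroblast list stood on opposite sides of 1 in the high spots of the sections. Its 10 genes together were at 1.06 times (95% interval 1.02 to 1.09) the level of other spots in the control section and at 0.945 times (0.920 to 0.972) in the rIL7 tumor. With 1 section per group the difference was not tested. At equal A+T count and in interior spots only, the ratios were 1.05 (1.02 to 1.09) and 1.005 (0.974 to 1.04).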

How the results depend on the processing

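No paired analysis was possible because each group held 1 section. Over the alternatives run, the values that answer a comparison changed little in 241 cases and moved in 99, and values of single lists changed little in 402, moved in 161 and reversed in 13, of those run for them. Precision is limited by the few UMIs of the 4 genes in a spot, and with 1 section per group no setting shows how a second tumor would vary. TMM and median-of-ratios scaling shifted the log2 ratios of all genes by 0.05 in the control and 0.03 in the rIL7 tumor, which left 97 genes lower in the control tumor with TMM.

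Taking the top 5% of spots gave 210 genes higher and 233 lower in the control and 87 and 138 in the rIL7 tumor, a left-out ratio of 3.46 and a neighbor-chosen own level of 1.82 in the control, 99.1% and 98.0% of high spots with 9 or more A+T bases, and a neighbor share of 11.5% in the rIL7 tumor. The top 20% gave 11 genes lower in the control and 25 higher and 8 lower in the rIL7 tumor, neighbor shares of 24.0% and 23.6% (beside 20% chosen), left-out ratios of 3.395 and 2.33, and A+T shares of 93.2% and 84.9%. Choosing within each of 5 depth classes gave a neighbor-chosen level of 1.29 and 33 lower genes in the control and a neighbor share of 12.9% in the rIL7 tumor. Interior spots alone gave an A+T share of 98.8% and 23 lower genes in the rIL7 tumor.

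Leaving a gene out of the sum moved several values. Without Dynlt1a the left-out ratio was 2.32 in the rIL7 tumor. Without Ankmy1 it was 2.72 and 2.17, with a neighbor share of 12.3% and an A+T share of 89.7% in the rIL7 tumor and a level 1.30 times as high in the control. Without Leng9 the rIL7 section had a left-out ratio of 2.17, a neighbor share of 12.3% and an A+T share of 90.8%. Without Pam the left-out ratios were 3.52 and 2.95, the neighbor-chosen levels 1.67 and 1.69, the control A+T share 93.7%, the genes lower in the rIL7 tumor 25, and the level in the control 1.70 times as high.

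Ranking spots by their neighbors lowered the A+T share to 44.6% and 52.8%, beside 41.7% and 42.6% of all spots, and gave 37 genes higher and 115 lower in the control and 8 higher in the rIL7 tumor. Keeping only groups of 5 or more spots left few UMIs, with 697 genes higher and 833 lower in the control, 335 and 427 in the rIL7 tumor, an A+T share of 91.7% in the control and 2 lists with the interval above 1 in the rIL7 tumor. A minimum of 5 CPM gave 324 genes higher and 318 lower in the control and 149 and 267 in the rIL7 tumor, and no minimum gave 2080, 4560, 1739 and 4637. A ratio of 5/4 gave 556, 370, 265 and 278 genes in the same order, and a ratio of 2 gave 33, 5, 5 and 3.

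Of the alternatives chosen after seeing the data, the choice within A+T counts gave left-out ratios of 1.55 and 1.28, 15 genes higher in the control, 1 higher and 22 lower in the rIL7 tumor, and for the latter a neighbor share of 11.3% and a neighbor-chosen level of 1.248. Restricted to the interior, it gave left-out ratios of 1.43 and 1.26, neighbor-chosen levels of 1.31 and 1.21, a neighbor share of 11.3% in the rIL7 tumor, 20 and 3 genes higher and 12 lower in the rIL7 tumor. Spots with 8 or fewer A+T bases gave left-out ratios of 1.42 and 1.07, 52 genes higher and 98 lower in the control, 21 and 68 in the rIL7 tumor with 2 lists above and 9 below 1, and a control level 1.02 times that of the rIL7 section. Spots with 9 or more gave 1.93 and 1.58, 214, 289, 94 and 175 genes, and a control level 1.57 times as high. With shared barcodes only, that level was 1.43 times as high.

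Reversals concerned 4 lists. The pericyte list in the rIL7 tumor rose to 1.04 in the top 20%, 1.05 without Leng9, 1.13 when ranked by neighbors and 1.01 with 9 or more A+T bases. The dendritic cell list in the control tumor was at 0.932 when ranked by neighbors, 0.995 in groups of 5 or more, 0.947 within A+T counts and 0.9502 within them in the interior. Sterol synthesis in the rIL7 tumor was at 0.9995 within A+T counts and 0.946 with 8 or fewer A+T bases. The keratinocyte list in the control tumor was at 1.36 with 9 or more A+T bases, 1.03 with shared barcodes and 1.18 within A+T counts in the interior. The cause of these reversals was not tested.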
